A study of Mus musculus with 12 samples.

Results

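Tubulin isotypes are the products of separate genes for alpha and beta tubulin, the 2 subunits of the microtubule. The 10 genes described here, 7 for beta tubulin (Tubb3, Tubb2a, Tubb2b, Tubb4a, Tubb4b, Tubb5 and Tubb6) and 3 for alpha tubulin (Tuba1a, Tuba1b and Tuba1c), were found by gene symbol in the authors' deposited tables of test results and joined by gene identifier to the raw counts, in which they are 10 of 27179 genes. All 10 passed the filter on low counts at both ages. The libraries were made from bulk RNA of dorsal cortex of C57BL/6 mouse embryos. They form 4 groups of 3 libraries each: WT at E14.5, Ash2l cKO at E14.5, WT at E16.5 and Ash2l cKO at E16.5. The cKO embryos carry a D6-Cre conditional knockout of Ash2l, a core subunit of the COMPASS family of histone H3 lysine 4 methyltransferase complexes. Cre is driven there by the D6 enhancer of Dach1 and is active in progenitors of the dorsal cortex, so blood vessels, meninges, microglia and neurons that migrate in from elsewhere keep the gene. Whether WT embryos carried floxed alleles or Cre is not given in the sources used here. Within an age, libraries are called A, B and C in the order of the number in their titles, and the WT and cKO libraries with the same letter share that number.

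Alpha and beta tubulin join as a dimer that adds to the growing ends of microtubules, which carry the mitotic spindle in dividing progenitors and the transport tracks of axons and dendrites in neurons. Tubb3, Tubb2a, Tubb2b, Tubb4a and Tuba1a are the isotypes known for high expression in neurons, and Tubb3 is widely used as a marker of young neurons. Tubb5, Tubb4b and Tuba1b are made by most cell types, dividing cells included, and Tubb6 is mainly found outside the nervous system. Mutations of TUBA1A, TUBB2B, TUBB3 and TUBB cause malformations of the human cortex.

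Several of these genes lie side by side, and their start regions are shown here because neighbours behaved differently in the counts. On chromosome 15 (mm10), Tuba1b (98931429 to 98934390, minus strand) is followed after 15.5 kb by Tuba1a (98949847 to 98953501, minus strand) and after a further 76.4 kb by Tuba1c (99029891 to 99038105, plus strand). On chromosome 13, Tubb2a (34074278 to 34078008) and Tubb2b (34127008 to 34130354) lie 49.0 kb apart, both on the minus strand. Of the others, Tubb3 lies on chromosome 8 (123411564 to 123422010, plus strand), Tubb4a on chromosome 17 (57080066 to 57087782, minus strand), Tubb5 on chromosome 17 (35833920 to 35838301, minus strand) and Tubb4b on chromosome 2 (25222158 to 25224702, minus strand), and each of the 10 genes is counted over 4 exons. RefSeq promoter sequences (GRCm38.p6, the mm10 assembly) were matched for 8 of the 10 genes, the exceptions being Tubb2b and Tubb6. The 200 bases before the annotated start of the 3 alpha genes and of 2 beta genes that behaved differently, Tubb3 and Tubb4b, are printed 5′ to 3′ on the strand of the gene, with capitals marking matches on either strand to the TATA box (TATAAA), the CCAAT box, the GC box (GGGCGG), the core of the TCF/LEF motif (TTTGAA) and a pair of E-boxes (CAGCTG and also CATCTG). They are Tuba1a chr15:98953502-98953701 (minus strand), Tuba1b chr15:98934391-98934590 (minus strand), Tuba1c chr15:99029691-99029890 (plus strand), Tubb3 chr8:123411353-123411552 (plus strand) and Tubb4b chr2:25224703-25224902 (minus strand).
Tuba1a: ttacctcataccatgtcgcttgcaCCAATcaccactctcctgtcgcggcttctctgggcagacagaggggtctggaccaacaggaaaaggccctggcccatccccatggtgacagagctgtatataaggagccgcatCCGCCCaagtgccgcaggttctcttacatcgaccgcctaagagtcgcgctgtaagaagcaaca
Tuba1b: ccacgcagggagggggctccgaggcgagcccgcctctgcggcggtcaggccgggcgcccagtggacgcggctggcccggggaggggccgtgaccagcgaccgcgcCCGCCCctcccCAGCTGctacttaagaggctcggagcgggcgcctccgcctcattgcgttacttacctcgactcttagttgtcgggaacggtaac
Tuba1c: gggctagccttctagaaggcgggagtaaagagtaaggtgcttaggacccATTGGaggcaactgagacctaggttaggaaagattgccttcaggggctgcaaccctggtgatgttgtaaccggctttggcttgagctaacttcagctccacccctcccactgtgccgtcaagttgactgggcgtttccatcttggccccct
Tubb3: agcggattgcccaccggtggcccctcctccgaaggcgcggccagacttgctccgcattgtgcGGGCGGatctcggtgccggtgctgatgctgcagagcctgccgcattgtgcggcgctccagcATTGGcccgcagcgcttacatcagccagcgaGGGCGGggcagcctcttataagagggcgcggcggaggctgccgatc
Tubb4b: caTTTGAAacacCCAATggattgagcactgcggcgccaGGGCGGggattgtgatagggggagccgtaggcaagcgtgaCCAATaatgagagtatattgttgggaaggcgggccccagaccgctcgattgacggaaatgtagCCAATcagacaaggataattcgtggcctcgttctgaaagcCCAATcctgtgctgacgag

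The window of Tuba1b held 24 CG pairs, that of Tuba1a 10 and that of Tuba1c 4, beside a median of 5 over 32851 mouse promoters of the same length. Tubb3 and Tubb2a held 21 each. The CCAAT box, searched on both strands, was found in 5 of the 8 windows and in 29.3% of all promoters, and Tubb4b held 4 copies, 19, 59, 122 and 188 bases before the start. The GC box GGGCGG was found in 5 of 8 and in 31.0% of all promoters. TATAAA was found in Tubb2a alone of the 8, 29 bases before the start, and in 9.96% of all promoters. The E-box CAGCTG was found in Tuba1b alone (10.9% of all promoters), TTTGAA in Tubb4b alone (12.5%), and CATCTG in 0 of 8 (11.6%). No 2 of the motif matches marked here overlap within a window. These are matches of letters in a window and say nothing of binding.

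For 6 of the 10 genes, sequence shared with near copies can keep reads from being assigned to 1 gene, which may bear on their levels. In GENCODE M21 transcripts, the coding sequences of Tuba1a and Tuba1b are 98.3% identical, those of Tuba1b and Tuba1c 97.9% and those of Tubb2a and Tubb2b 96.5%, whereas Tubb3 is between 81.4% and 85.9% identical to the other 6 beta genes. Tubulin messages are destroyed when free tubulin is in excess, through a factor (Ttc5) that reads the start of the new protein chain, and the first 12 coding bases that encode that start are shown for the alpha genes and for 3 beta genes.
Tuba1a, Tuba1b and Tuba1c: atgcgtgagtgc
Tubb3 and Tubb4b: atgagggagatc
Tubb2b: atgcgagagatc
The 3 alpha genes share these letters. Of all 50-base windows in a transcript, the share that also occurs in a transcript of another gene, pseudogenes included, was 83.1% for Tuba1b, 75.5% for Tuba1a, 61.0% for Tuba1c, 55.5% for Tubb4b, 49.6% for Tubb2a and 39.3% for Tubb2b. It was 0% for Tubb3 and Tubb6, 0.115% for Tubb5 and 0.184% for Tubb4a. The recorded counting command has no option for reads that align to several places, and the counting program leaves such reads out unless told otherwise. The levels per kilobase of the first 6 genes may therefore be too low, and how many of their reads were left out was not tested. Read length is not given in the sources used here, and the windows need not match the span of a read pair.

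**Figure D1:**
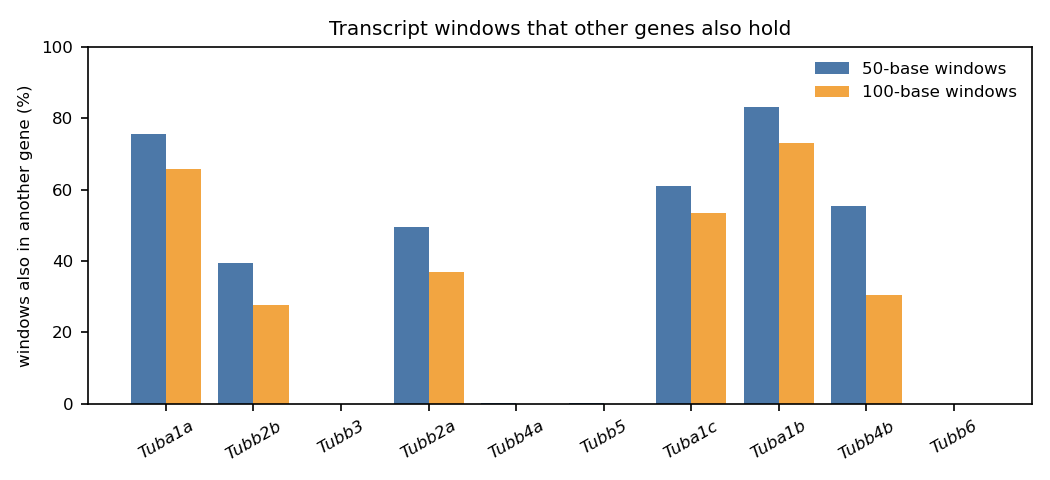
Percentage of the 50-base (blue) and 100-base (orange) windows of each tubulin transcript that also occur in a transcript of another gene; the y axis is in percent. The 3 alpha genes, Tubb4b, Tubb2a and Tubb2b stand between 39.3% and 83.1% for 50-base windows, and the other 4 genes at or below 0.184%.

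Library totals ran from 14318147 to 24719047 counts, and the 10 genes together took between 0.652% and 1.13% of them. Ash2l checked the labels: in CPM (the count as a part of the scaled library total, the usual normalised read count) it stood at 118 to 143 in the 3 WT libraries and 47.0 to 60.0 in the 3 cKO libraries at E14.5, and at 129 to 135 against 54.4 to 60.7 at E16.5. Sex is not in the labels, and read from Xist and 4 Y-linked genes all 3 WT libraries at E14.5 were male and all 3 cKO libraries female, so sex and genotype cannot be told apart at that age. At E16.5 WT A and cKO C were female and the other 4 male. At E14.5, cKO A held 356 CPM of 10 meningeal fibroblast markers (13.5 to 49.4 in the other 5 libraries), and WT B held 371 CPM of 14 GABAergic markers (65.5 to 172 in the other 5). Choroid plexus markers stood at 487 CPM in WT A at E14.5 and 630.5 CPM in WT C at E16.5, against 9.19 to 61.1 in the other 10. Dorsal cortex markers such as Emx1 and Tbr1 were present in all 12 libraries. The sum of 11 such markers at E16.5 was 3297 to 3458 CPM in WT and 2688 to 3009 CPM in cKO, with no overlap. That gap in the sum was not shared by every marker, and Emx1 and Tbr1 each overlapped between genotypes at that age. Of the 11 genes, 1 (Neurod6) was lower and 0 higher at an edgeR adjusted p under 0.05, and 7 had a negative log2 change. Over all genes, 9.88% were lower and 5.98% higher by that test. At E14.5 the sum of the 11 markers was 3364 to 3640 CPM in WT and 2686 to 3464 CPM in cKO, with overlap. In bulk RNA, fewer cells of a type and less RNA per cell cannot be told apart, and since no source says that each library is a separate animal, the tests see only how far these libraries spread.

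Expressed as RPKM, the CPM value (scaled between libraries by TMM) per kilobase of exon, Tuba1a had the highest mean of the 10 genes in all 4 groups and Tubb6 the lowest. In WT cortex at E16.5 the mean level was 2441 ± 137 RPKM for Tuba1a (SD, n = 3), 1292 ± 124 for Tubb2b, 938 ± 55.3 for Tubb5, 622 ± 63.7 for Tubb3, 248.3 ± 15.5 for Tuba1b, 119 ± 16.8 for Tubb2a, 89.6 ± 7.53 for Tubb4b, 53.6 ± 4.80 for Tubb4a, 8.63 ± 1.24 for Tuba1c and 1.06 ± 0.0503 for Tubb6. No neighbours in that order overlapped. At E14.5 the WT order was the same except that Tubb4b stood before Tubb2a, and there the ranges of Tubb2b and Tubb5 overlapped, as did those of Tubb4b and Tubb2a. In cKO cortex at E14.5, Tubb5 (850 ± 27.4 RPKM) stood above Tubb2b (706 ± 125) with no overlap, and the ranges of Tuba1b (341 ± 65.1) and Tubb3 (338 ± 62.9) overlapped, as did those of Tuba1c (7.33 ± 2.90) and Tubb6 (2.504 ± 2.63). In cKO cortex at E16.5, Tubb4b (99.5 ± 2.42 RPKM) stood above Tubb2a (69.6 ± 9.27), the reverse of WT at that age. Levels were also counted per kilobase of transcript not shared with other genes, a scale chosen after the data were seen. On it Tuba1b moved from the fifth to the third place in WT at E16.5 (1466 ± 91.7 per unshared kilobase). Tuba1a stayed first there (9981 ± 559). In cKO at E14.5, Tubb2b (1164 ± 207) stood above Tubb5 (851 ± 27.4) on that scale, the reverse of their RPKM order.

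**Figure D2:**
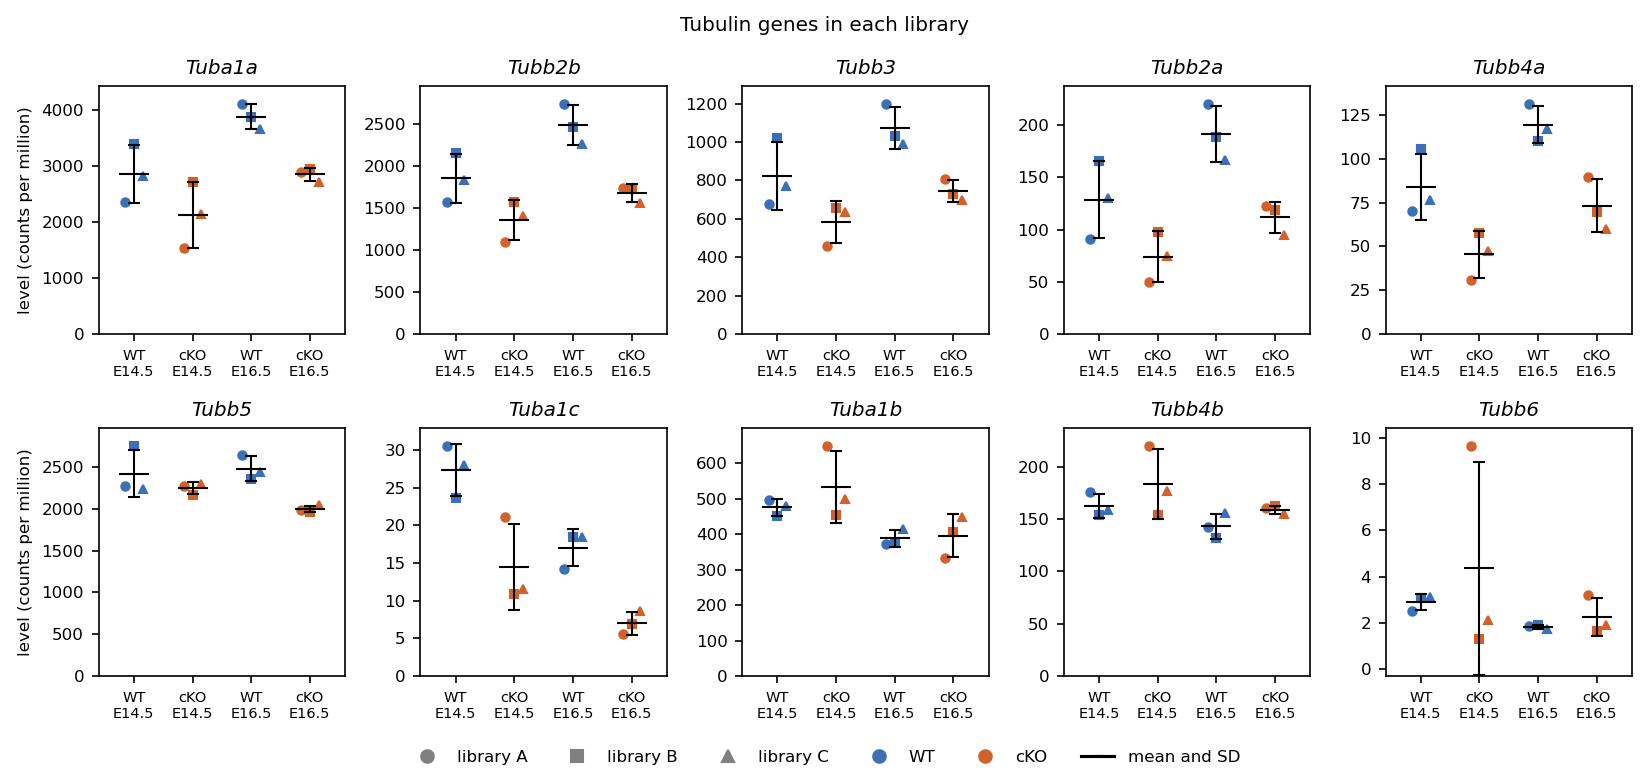
Level of each tubulin gene in CPM (y axis, linear) in the 12 libraries by age and genotype; points are libraries (A circle, B square, C triangle; WT blue, cKO orange), bars the mean and SD of 3. At E16.5 the orange points of Tuba1a, Tubb2b, Tubb3, Tubb2a, Tubb4a, Tubb5 and Tuba1c all lie below the blue ones, and those of Tuba1b, Tubb4b and Tubb6 overlap them.

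At E16.5, the isotypes known from neurons were lower in cKO than in WT cortex. Tubb3, Tubb2a, Tubb2b, Tubb4a and Tuba1a all fell, as did Tubb5 and the minor alpha gene Tuba1c. Tuba1b, Tubb4b and Tubb6 did not pass the test. In all, 7 of the 10 genes were lower by edgeR's quasi-likelihood test with Benjamini-Hochberg adjustment over 14865 genes, and 0 were higher. Over all genes, 9.88% were called lower and 5.98% higher, 15.9% in all. The 7 genes were also those whose cKO libraries all lay below the WT libraries, as 17.9% of all genes did. The median log2 change was -0.49 over the 10 genes and 0.02 over all genes tested. Of 20 pan-neuronal markers that are not tubulins, 13 fell as well, with a median log2 change of -0.53, and leaving out 1 library gave 4 to 15. Blocking on the title number, which WT and cKO libraries share, called the same 7 genes, with 4790 genes called in place of 2358 over the whole table.

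Tubb3 stood at 1196, 1034 and 988 CPM in WT A, B and C and at 807, 730 and 699 CPM in cKO A, B and C. The groups did not overlap, and the mean fell by 30.5% (log2 change -0.53, SE 0.0923, edgeR adjusted p = 0.00898). Tubb2b, the most abundant beta gene of WT cortex at this age, stood at 2731, 2466 and 2254 CPM in WT and 1734, 1739 and 1552 CPM in cKO. It fell by 32.5%, again with no overlap (log2 change -0.57, SE 0.0885, edgeR adjusted p = 0.00582). Its near copy Tubb2a stood at 220, 188 and 166 CPM in WT and 122, 119 and 94.8 CPM in cKO. Tubb2a fell by 41.5% (log2 change -0.78, SE 0.128, edgeR adjusted p = 0.00727), and WT A was the highest library for both genes. Tubb4a stood at 131, 110 and 117 CPM in WT and 89.6, 69.5 and 60.0 CPM in cKO, and fell by 38.8% (log2 change -0.71, SE 0.143, edgeR adjusted p = 0.0154). That call was lost without WT A (edgeR adjusted p = 0.0537) and without cKO B (0.0730), with a range of 6.91e-05 to 0.0778 over all 14 alternatives. Tuba1a, the main alpha gene, stood at 4104, 3879 and 3669 CPM in WT and 2902, 2947 and 2723 CPM in cKO. It fell by 26.4% with no overlap (log2 change -0.45, SE 0.0695, edgeR adjusted p = 0.00593).

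Tubb5 and Tuba1c also fell, by unlike amounts. Tubb5, which dividing progenitors and neurons both use, stood at 2643, 2357 and 2446 CPM in WT and 1985, 1969 and 2045 CPM in cKO. The lowest WT library lay above the highest cKO library, and the mean fell by 19.4% (log2 change -0.32, SE 0.0662, edgeR adjusted p = 0.0175). The call of Tubb5 was lost without WT A (edgeR adjusted p = 0.0599), WT C (0.0648) or cKO B (0.0784), the last being the highest of its 14 alternatives. Tuba1c had 268, 318 and 360 counts in WT and 104, 133 and 130 in cKO, or 14.2, 18.5 and 18.5 CPM against 5.53, 6.90 and 8.59 CPM. It fell by 58.9%, the largest change of the 10 genes on the log2 scale (-1.30, SE 0.188, edgeR adjusted p = 0.00479), and it stayed called under all 14 alternative settings run for that age. Tubb2b did so too, and of the other 5 called genes each was lost under at least 2.

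Tuba1b stood at 372, 377 and 416 CPM in WT and 332, 407 and 450 CPM in cKO at E16.5, with overlapping groups (log2 change 0.02, SE 0.112, edgeR adjusted p = 0.920). Tubb4b stood at 142, 132 and 156 CPM in WT and 160, 162 and 155 CPM in cKO (log2 change 0.15, SE 0.0748, edgeR adjusted p = 0.225). Tubb6 had between 29 and 60 counts a library, and its highest library was cKO A (log2 change 0.29, SE 0.300, edgeR adjusted p = 0.552). An edgeR fit of all 12 libraries called Tuba1c (edgeR adjusted p = 0.0074) and Tubb2b (0.0263) alone among the 10 genes at E16.5, and left the other 5 at adjusted p between 0.0515 and 0.135. In the authors' deposited table for E16.5, the log2 ratio of WT over knockout was 0.52 for Tubb3, 0.56 for Tubb2b, 0.74 for Tubb2a and -0.01 for Tuba1b.

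**Figure D3:**
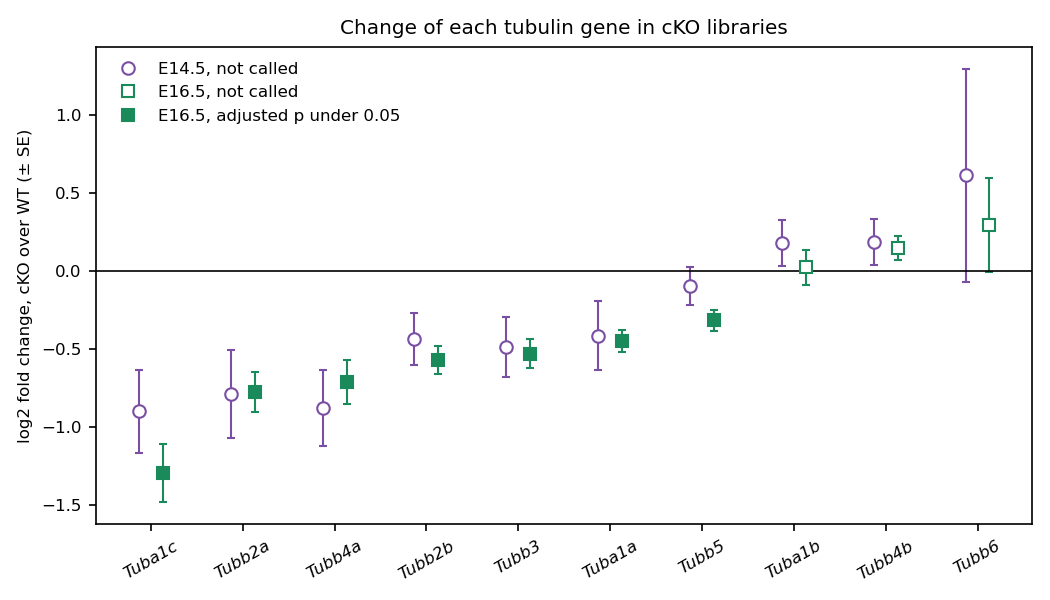
Log2 fold change of cKO over WT with its standard error for each tubulin gene at E14.5 (purple circles) and E16.5 (green squares), from edgeR fits of each age alone; filled symbols passed an adjusted p of 0.05. The 7 filled squares lie between -1.30 and -0.32, and no circle is filled.

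At E14.5 the direction was alike for most genes, and 0 of the 10 passed the test. edgeR called 2.01% of 14788 genes at that age, 1.66% lower and 0.352% higher. Among the 10 genes, 5 had an unadjusted p under 0.05 in edgeR, as 2989 of the 14788 genes tested did. DESeq2 called 2 of the 10, Tubb4a and Tuba1c, and 7.92% of all genes it tested. The cKO libraries all lay below the WT libraries for 4 genes (Tubb3, Tubb2b, Tubb4a and Tuba1c), where 14.6% of all genes did so. The median log2 change was -0.43 over the 10 genes and 0.03 over all genes tested. Tubb3 stood at 677, 1019 and 769 CPM in WT A, B and C and 458, 655 and 634 CPM in cKO (log2 change -0.49, SE 0.191, edgeR adjusted p = 0.214). WT B was the highest library and cKO A the lowest, and these are the libraries high in GABAergic and in meningeal markers. Tubb4a stood at 70.3, 105 and 76.3 CPM in WT and 30.8, 57.9 and 47.4 CPM in cKO (log2 change -0.88, SE 0.243, edgeR adjusted p = 0.108). Tuba1c stood at 30.5, 23.7 and 28.0 CPM in WT and 21.1, 10.9 and 11.5 CPM in cKO, with cKO A nearest to WT (log2 change -0.90, SE 0.267, edgeR adjusted p = 0.128). Without WT B and cKO A together, Tuba1c was called (log2 change -1.38, edgeR adjusted p = 0.00451), while Tubb3, Tubb2b and Tuba1a stood at -0.17, -0.20 and -0.10 and were not. Over its 14 alternatives, the edgeR or DESeq2 adjusted p of Tuba1c at E14.5 ran from 0.00451 to 0.349, and 5 called it.

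Tubb2b, the last of the 4 genes that lay apart at E14.5, was at 1573 to 2149 CPM in WT and 1095 to 1569 CPM in cKO. Its log2 change was -0.44 (edgeR adjusted p = 0.204). The other 6 genes at E14.5 showed no groups apart. Tubb2a was at 91.0 to 165 CPM in WT and 49.7 to 97.8 CPM in cKO (log2 change -0.79, edgeR adjusted p = 0.180), and Tuba1a at 2358 to 3388 CPM against 1540 to 2716 CPM (-0.42, adjusted p = 0.340). Tubb5 was at 2237 to 2749 CPM against 2166 to 2301 CPM (log2 change -0.10, edgeR adjusted p = 0.690). Tuba1b had its highest value of all 12 libraries in cKO A, 648 CPM beside 450 to 499 CPM in the other 5 at E14.5, and Tubb4b likewise, 220 CPM beside 154 to 177 CPM. Tubb6 stood at 9.64 CPM in cKO A and 1.32 to 3.14 CPM in the other 5. Its log2 change of 0.61 became -0.72 without cKO A, the library with 60.8 CPM of Col1a1, a collagen gene of meningeal fibroblasts, beside 0.949 to 8.09 CPM in the other 5 at E14.5. What the meningeal cells of that library contribute to Tubb6 was not tested.

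The change in cKO libraries was not shown to differ between ages for any of the 10 genes. The interaction of genotype and age, fitted on all 12 libraries, called 0 of 15338 genes by edgeR (0% of genes, with 318 at an unadjusted p under 0.05) and 0 by DESeq2. It ranged from -0.37 for Tuba1c (SE 0.346) to 0.18 for Tubb4a (SE 0.311). No member had an unadjusted p under 0.05 there.

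Between ages the log2 changes of the isotypes had opposite signs within a genotype, and 1 change passed the threshold. In WT libraries, edgeR called 2.15% of 15338 genes between E14.5 and E16.5 (1.39% lower and 0.763% higher at E16.5) and 0 of the 10. In that comparison 6 of the 10 had an unadjusted p under 0.05, as 4252 of the 15338 genes did, and DESeq2 called 1, Tubb2b, and 13.7% of all genes it tested. Tubb2a, Tubb2b, Tubb4a and Tuba1a were higher in all 3 WT libraries at E16.5 than in any at E14.5 (17.0% of all genes were), with log2 changes of 0.57, 0.42, 0.51 and 0.44. Tuba1b, Tuba1c and Tubb6 were lower in all 3 (18.3% of all genes were), with log2 changes of -0.29, -0.68 and -0.66. In cKO libraries edgeR called 7.62% of genes (3.71% lower and 3.91% higher) and 1 of the 10, Tuba1c, which fell from 21.1, 10.9 and 11.5 CPM to 5.53, 6.90 and 8.59 CPM (log2 change -1.05, SE 0.253, edgeR adjusted p = 0.0395). Adding a term for sex ended that call (edgeR adjusted p = 0.229) and left 5 genes called of the whole table. It was also lost without cKO A at E14.5, the library high in meningeal markers (log2 change -0.69, edgeR adjusted p = 0.114), and 8 of 17 alternatives called it. DESeq2 called 3 of the 10, Tuba1b, Tuba1c and Tubb4a, and 20.6% of all genes it tested. These age comparisons and the genotype comparisons share libraries, and all 3 cKO libraries at E14.5 were female.

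The mix of isotypes was described as the share of each gene in the summed RPKM of the 3 alpha or the 7 beta genes, a quantity that needs no scaling between libraries. At E16.5, Tuba1b made up 8.41%, 8.97% and 10.3% of the alpha sum in WT and 10.4%, 12.3% and 14.4% in cKO. Tubb5 made up 29.4%, 29.5% and 31.6% of the beta sum in WT and 32.1%, 32.7% and 35.6% in cKO, and Tubb4b 2.61%, 2.72% and 3.33% against 4.29%, 4.45% and 4.46%. Both groups of libraries lay apart for these 3 genes, with cKO above. Tubb2b made up 41.8%, 42.4% and 40.1% of the beta sum in WT and 38.6%, 39.7% and 37.2% in cKO, with cKO below. The share of Tubb3 overlapped, at 19.95% ± 0.425 in WT and 19.1% ± 0.799 in cKO (SD, n = 3). Those of Tuba1c and Tubb2a lay apart with cKO below, and that of Tubb6 with cKO above. At E14.5 the shares of Tuba1b, Tubb5, Tubb4b and Tubb2b all overlapped between genotypes. Tubb4a alone had a share that lay apart at that age, with cKO below. For a share whose groups lay apart the exact two-sided permutation test gave p = 0.1, the smallest that 3 against 3 libraries allow, and no share can pass the threshold. Shares rest on levels compared between genes and so carry the limit on shared windows given above. With length counted over unshared windows, the Tuba1b share at E16.5 was 12.8% in WT and 16.9% in cKO.

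The summed level of the alpha genes at E16.5 was 2698 ± 122 RPKM in WT and 2053 ± 57.4 in cKO (SD, n = 3), a difference of -23.9%. That of the beta genes was 3116 ± 251 against 2263 ± 85.6, a difference of -27.4%. The libraries lay apart for both sums (exact two-sided permutation test, p = 0.1 for each, the smallest possible). At E14.5 the alpha sum was 2116 ± 307 against 1690 ± 305 RPKM with overlap (p = 0.2, exact permutation test), and the beta sum 2577 ± 376.2 against 2078 ± 169 with none (p = 0.1, exact permutation test). Without WT B, the alpha difference at E14.5 moved from -426 to -269 RPKM and the beta difference from -499 to -288 RPKM. Without cKO A the alpha difference shrank by a like amount.

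**Figure D4:**
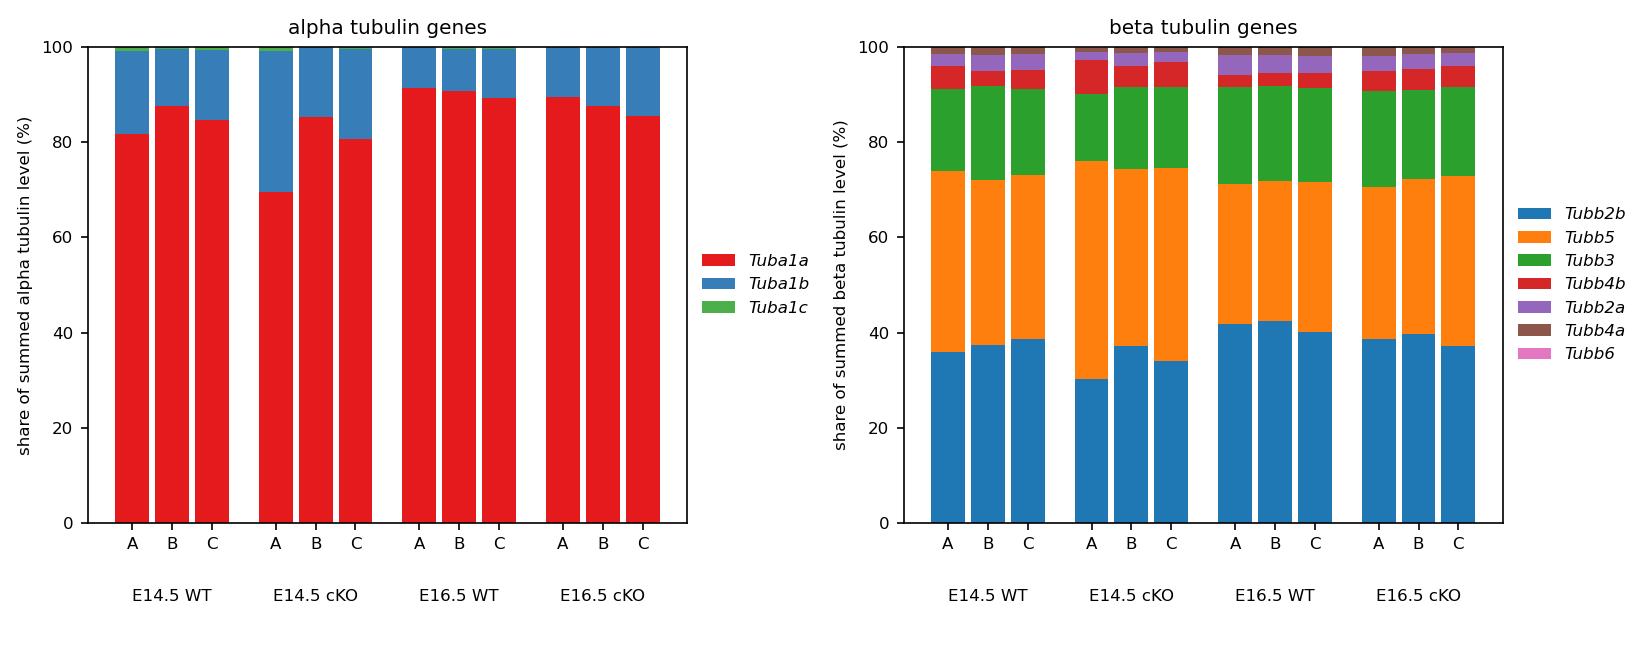
Share of each gene in the summed level per kilobase of the 3 alpha (left) and 7 beta (right) tubulin genes, in percent, with 1 stacked bar per library. At E16.5 the Tuba1b segment is 8.41% to 10.3% in WT and 10.4% to 14.4% in cKO, and the Tubb4b segment 2.61% to 3.33% against 4.29% to 4.46%.

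Across libraries the levels of 5 of the genes varied together, and those of Tubb4b and Tuba1b against them. Over the 12 libraries, Pearson's r of log2 CPM between any pair of Tubb3, Tubb2a, Tubb2b, Tubb4a and Tuba1a was 0.956 to 0.991. Tubb4b ran against these 5 (r from -0.929 to -0.826) and so did Tuba1b (-0.818 to -0.734). After the mean of each group was subtracted, the first 5 still had r of 0.888 to 0.990, Tubb4b -0.887 to -0.680 and Tuba1b -0.911 to -0.779. Tuba1c had r of -0.061 to 0.107 with the 5 over all libraries and -0.946 to -0.835 after the group means were subtracted. These are descriptions without a test, since genes of 1 library share its depth, scaling and cell mix, and Tubb2a and Tubb2b, like the alpha genes, share windows. By the same measure, the 3 genes of at least 10 mean CPM most like Tubb3 were Epb41l1 (0.993), Rusc1 (0.991) and Amer3 (0.989), and those most like Tubb5 were Mtmr9 (0.883), Rnpep (0.883) and Kcnd2 (0.881). Chosen after its value was seen, the gene most like Tuba1c was Clic1 (0.992).

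**Figure D5:**
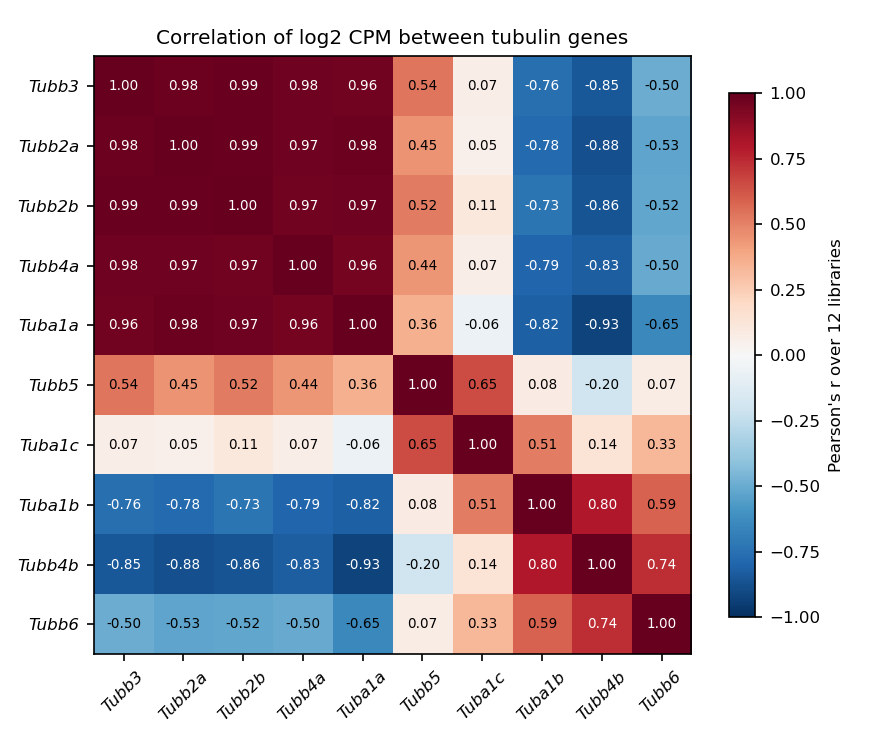
Pearson's r of log2 CPM between each pair of tubulin genes over 12 libraries, as colour and number, from -1 (blue) to 1 (red). Tubb3, Tubb2a, Tubb2b, Tubb4a and Tuba1a form a block at 0.96 to 0.99, and Tuba1b and Tubb4b stand at -0.93 to -0.73 with it.

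Markers of neurons were lower along with the neuronal isotypes at E16.5. Of 20 pan-neuronal markers that are not tubulins, edgeR called 13 lower, Syt1 and Stmn2 among them, and 0 higher at E16.5. Snap25 was among those not called. Over all genes, 9.88% were called lower and 5.98% higher. The summed level of the 20 markers was 4219 to 5068 CPM in WT and 2840 to 3503 CPM in cKO. None was at 0 in any library. The count of 13 became 4 without WT A, 4 without WT B, 5 without cKO B and 8 without cKO C. Per 1000 counts of these markers, a ratio chosen after the values were seen, Tubb3 stood at 236, 227 and 234 counts in WT and 230, 245 and 246 in cKO, with overlap. Tubb2a, Tubb2b, Tubb4a, Tuba1a, Tubb5, Tuba1b and Tuba1c overlapped between genotypes on that scale too, while Tubb4b was higher in all 3 cKO libraries (45.8, 54.5 and 54.5 against 28.1, 28.9 and 36.9), as was Tubb6. At E14.5, 1 of the 20 markers was called lower (0 on leaving out any 1 library, 9 by DESeq2) and the median was -0.69. Of all genes tested at that age, edgeR called 2.01% and DESeq2 7.92%. Tubb3 stood there at 261, 256 and 261 per 1000 marker counts in WT and 345, 271 and 296 in cKO, with cKO above. Tubb2b, Tubb5 and Tuba1a were also higher in all 3 cKO libraries on that scale. Tubb4a was lower in all 3 (27.1, 26.5 and 25.9 in WT, 23.2, 24.0 and 22.2 in cKO), and the other 5 genes overlapped. The marker sum was itself lower in cKO at both ages (2594 to 3981 CPM in WT and 1327 to 2416 CPM in cKO at E14.5). A gene that fell less than the markers therefore stands higher on that scale. How many of all genes lie apart on it was not counted. Of 19 apical progenitor markers, 3 were called higher and 1 lower at E16.5, beside 5.98% and 9.88% of all genes. Their median log2 change was 0.15, and their summed levels overlapped (4016 to 4566 CPM in WT, 3978 to 4821 CPM in cKO). That count of 4 was 1 to 6 on leaving out 1 library (1 without WT A, WT B or cKO C, 2 without cKO B). It was 11 with the block on the title number, which called 32.2% of all genes.

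Other genes of the tubulin pathway were read from lists of known members. Beside the list counts at E16.5, edgeR called 15.9% of all genes, 9.88% lower and 5.98% higher. No list was tested as a set, so the counts name genes and are no result about a list. At E16.5 the enzymes that remove and restore the last residue of alpha tubulin were lower in part: of 4 genes, Svbp and Ttl fell. Svbp, the partner of the vasohibin detyrosinases, stood at 9.45, 8.60 and 9.75 CPM in WT and 5.59, 5.14 and 4.03 CPM in cKO (log2 change -0.91, SE 0.165, edgeR adjusted p = 0.0102). Ttl, the ligase that adds tyrosine back, had a log2 change of -0.32 (edgeR adjusted p = 0.0153). Of 11 tested genes for glutamylation and glycylation, Ttll7, a beta tubulin polyglutamylase, fell (38.0, 38.6 and 35.5 CPM in WT, 19.2, 19.0 and 24.7 CPM in cKO, edgeR adjusted p = 0.00416), and Ttll5 (0.31) and Tpgs2 (0.32) rose on the log2 scale. Of 5 tested deglutamylases, Agbl5, which removes branch-point glutamates, fell by 0.39 on the log2 scale.

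Agbl1, another gene of the deglutamylase family, showed the largest change of any pathway gene named here, and in the opposite direction. It stood at 2.39, 2.91 and 2.62 CPM in WT and 23.3, 17.3 and 9.64 CPM in cKO at E16.5, with no overlap (log2 change 2.66, SE 0.321, edgeR adjusted p = 0.00275). At E14.5 it stood at 3.90, 2.85 and 2.63 CPM in WT and 10.5, 11.6 and 11.4 CPM in cKO, and it was the 1 gene of its list called (log2 change 1.85, SE 0.198, edgeR adjusted p = 0.0130). The call at E14.5 was lost without WT B, WT C, cKO B or cKO C (edgeR adjusted p from 0.0512 to 0.110).

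Of 5 tested genes for other tubulins, Tuba4a, an alpha tubulin of mature tissues, fell at E16.5 (7.44 to 7.85 CPM in WT, 4.46 to 5.02 CPM in cKO, log2 change -0.68, edgeR adjusted p = 0.0177). Of 11 genes of the gamma-tubulin ring complex and its anchors, which seed microtubules, 3 rose, Tubgcp4 (log2 change 0.33), Tubgcp3 (0.28) and Pcnt (0.28), and 0 fell. Leaving out 1 library gave 0 to 2 calls in that list (0 without WT A, WT B or cKO B, 1 without WT C). Of 17 structural microtubule-associated proteins, 15 had a negative log2 change (median -0.19, beside 0.02 over all genes tested). In that list 3 fell: the doublecortin-like kinases Dclk2 (-0.81) and Dclk1 (-0.48), and the end-binding protein Mapre2 (-0.46). The list counts here stand beside 15.9% of all genes called at E16.5, 9.88% lower and 5.98% higher. Dclk2 fell at E14.5 as well (log2 change -0.83, edgeR adjusted p = 0.0384), a call that was lost on leaving out any 1 library except cKO A (edgeR adjusted p up to 0.178). Of 4 genes for the decay of tubulin messages, Scaper fell (-0.28), and it kept the call without cKO C but in none of the other 5 fits that left out 1 library. Of 21 genes for the folding of tubulin, edgeR and DESeq2 each called 0 at E16.5 and each gave 1 an unadjusted p under 0.05, with Arl2 (log2 change -0.49, adjusted p = 0.0744) and Cct3 (0.11, 0.262) having the smallest edgeR p. Of the severing genes edgeR called 0 of 8 tested and DESeq2 0 of 9, with 1 at an unadjusted p under 0.05 in each. Katna1 (log2 change 0.27, edgeR adjusted p = 0.0740) and Katnal2 (0.31, 0.161) came first in edgeR. Of 3 genes for acetylation and its removal neither tool called any or gave one an unadjusted p under 0.05, with Sirt2 at 0.14 and Atat1 at -0.18. The block on the title number at E16.5 called Arl2, Katna1 and Atat1 (edgeR adjusted p = 0.0111, 0.0327 and 0.0134). Arl2 was also called in the 12-library fit and Katna1 with library totals. The block called 6 genes of the ring complex list in place of 3, 9 of the structural proteins in place of 3, 3 of the decay genes in place of 1 and 2 of the other tubulins in place of 1. Over all genes it called 32.2% in place of 15.9%. At E14.5, Agbl1 and Dclk2 were the 2 genes edgeR called among all these lists, beside 2.01% of all genes. DESeq2 called these 2 and also Fign, Tubg2, Svbp and Map7, beside 7.92% of all genes it tested. In edgeR, Fign had a log2 change of -2.33 and Tubg2 of -1.34 at that age. Of the 15 pathway genes named as called at E16.5, Agbl1, Dclk2 and Svbp kept the call under all 14 alternatives for that age, and each of the other 12 lost it under at least 1.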

How the data were processed

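RNA was sequenced from 12 dorsal cortex libraries. The submitters' processing notes name STAR 2.5.2b as aligner and mm10 as genome. The authors then obtained raw counts of read pairs over RefSeq exons; the command in the file headers names featureCounts 1.5.2 with strand setting 2 (reverse), a minimum overlap of 25 bases, both ends aligned and chimeric pairs left out. No option for multi-mapped reads is in that command. Exon lengths were taken as deposited. The deposited log2 ratios and adjusted p-values are from the authors' run of DESeq2 1.14.1, per the submitters' processing notes, with an unstated design formula. Those tables also hold normalised values in 12 columns, which were left aside.

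Here the counts were tested with edgeR 4.0.16 (quasi-likelihood, R 4.3.3), TMM scaling and a filter on low counts. P-values were adjusted by Benjamini and Hochberg's method across the whole table, with 0.05 as threshold. A model of the 6 libraries of an age gave the genotype comparisons, and 1 of all 12 the age comparisons. Log2 CPM for correlations had a prior count of 2, and likeness was searched among 9516 genes of at least 10 mean CPM. The scripts were tested on simulated data. Alternatives were DESeq2 1.42.0, other scalings, no filter, a sex term, a 12-library fit, the title number as a block, and leaving out libraries. Sequences came from tables of RefSeq promoters and GENCODE transcripts and were handled with Biopython 1.88.

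The pairing was taken from the title number, and the labels do not say what that number means. Libraries with the same title number at E16.5 deviated together from their group means (r = 0.281, 0.210 and 0.112 for A, B and C). This correlation is a check on the pairing. It is weak for C, which reached r = 0.107 with another number, and 0.0926 with its own over the genes of the 12-library fit. At E14.5 pairs A and B deviated together (r = 0.272 and 0.304, against at most -0.0497 and 0.0447 with another number). The third pair did not (r = -0.0022). Rn45s, a ribosomal RNA gene, took 2.28% to 6.11% of the counts. Libraries of a group differed by far more than sampling noise (chi-square per degree of freedom of 9.06 to 48.3). The members and gene lists were chosen with earlier results of these data known. All 10 members were named, with up to 4 called genes of each pathway list by ascending p, or the first 2 where none was called. The ratio to neuronal markers and the unshared length were added after the values were seen.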

Additional observations from a re-analysis of the deposited data

How the results depend on the processing

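Among the 10 tubulin genes at E14.5, where 0 were called, the 12-library fit called 2, DESeq2 2, and 1 passed without WT B and cKO A (leaving out 1 library gave 0 to 1). Of all genes tested at E14.5, 2.01% were called, and 8.71% in the 12-library fit, 0.835% with sex added to it, 7.92% by DESeq2 and 4.15% without WT B and cKO A. Leaving out 1 library gave 0.0334% to 2.35%, under the 2.01% in each case except without cKO A. At E16.5 the 7 calls became 2 in the 12-library fit and 2 with sex added (5 to 7 leaving out 1 library). Of all genes at E16.5, 10.2% were called with sex added to that fit in place of 15.9%, and 6.504% to 19.0% leaving out 1 library (7.45% without WT A, 6.504% without WT B and 6.59% without cKO B).

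With the replicate block, 3 tubulin genes (Tuba1c, Tubb2a and Tubb4a) and 8.65% of all genes were called at E14.5. There the libraries of pairs A and B deviated together from their group means, and those of pair C did not. The replicate block at E16.5 called 32.2% of all genes and the same 7 tubulin genes, and for the age difference 1 gene of the table (0.00652%) in place of 0. It changed no other call of a tubulin gene.

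Between ages in WT, DESeq2 called 1 tubulin gene in place of 0 and 13.7% of genes in place of 2.15%, no filter gave 1.079% and a sex term 0.0652%. Leaving out 1 library gave 0 to 3 tubulin genes and 0.0064% to 14.2% of all genes, highest without WT B at E14.5. Between ages in cKO, DESeq2 called 3 in place of 1 and 20.6% of genes in place of 7.62%, no filter gave 2.51%, and a sex term left 0 and 0.0326%. Leaving out 1 library gave 0 to 6 tubulin genes and 0.238% to 23.6% of all genes, highest without cKO B at E14.5. Library totals moved the share of lower calls there from 48.7% to 37.1%, and DESeq2 size factors in WT from 64.5% to 54.0%.

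Signs turned for genes that were not called. Without WT B and cKO A at E14.5, Tubb4b stood at -0.017, Tubb6 at -0.67, Tuba1b at -0.041 and Atat1 at 0.069 on the log2 scale. Leaving out 1 library, the log2 change at E14.5 ranged from -0.15 to 0.0044 for Tubb5, -0.72 to 1.02 for Tubb6 and -0.0046 to 0.28 for Tuba1b. At E16.5 it ranged from -0.052 to 0.48 for Tubb6 and -0.077 to 0.13 for Tuba1b. Between ages it ranged from -0.013 to 0.15 for Tubb5 in WT and -1.40 to 0.35 for Tubb6 in cKO, and the age difference of Tubb4a from -0.048 to 0.36. The difference in the share of Tubb6 at E14.5 ranged from -0.019 to 0.11 points. The cause was not tested.

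Tubb6 (19 to 179 counts a library) and Tuba1c (104 to 610) are the members that depth limits most. With 3 libraries a group, no single share or sum can pass the threshold by permutation.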
